A study of Homo sapiens with 12 samples.

Results

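The 9 genes described here encode cytokines, receptors, the transcription factor and a feedback inhibitor of the interleukin 6 (IL6) family, and were taken as every row of the count table whose RefSeq accession maps to IL6, LIF, IL11, IL6R, IL6ST, LIFR, OSMR, STAT3 or SOCS3. They are 9 of the 25021 gene symbols in the table. RNA sequencing had been done on MCF10AT, an established human mammary epithelial line transformed by HRasG12V, after lentiviral transduction and puromycin selection. The groups were EP300 KD1 and EP300 KD2, 2 lines with independent shRNAs against EP300 (p300, an acetyltransferase and transcriptional coactivator), and the non-silencing controls NS1 and NS2, with 3 libraries each. All 4 groups share the transforming HRas, the vector, the drug selection and a medium with horse serum, epidermal growth factor, insulin, cholera toxin and hydrocortisone. Whether a line was a pool or a clone is not stated in the labels. Nor is it stated that replicate libraries come from different cultures, and the tests therefore reflect library spread that may be technical. Each EP300 line, called a hairpin below, was compared with the control of the same number, and these comparisons share no library. This pairing was assumed, since the study speaks of corresponding controls without naming the pairs, and values against both controls pooled are given where they change a call.

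Cytokines of this family signal through gp130, the shared receptor chain encoded by IL6ST. IL6 and IL11 first bind their own receptor chains (IL6R and IL11RA), LIF pairs gp130 with LIFR, and oncostatin M pairs it with OSMR. Janus kinases bound to these chains phosphorylate STAT3, which moves to the nucleus and switches on genes that include SOCS3, and SOCS3 protein in turn blocks the kinases at gp130. In mammary epithelium, LIF and STAT3 are known for their part in the involution of the gland after lactation, and IL6 made by tumour cells is a well-known autocrine activator of STAT3.

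Total counts ran from 31396653 to 45606950 per library. EP300 itself fell to 107 ± 0.884 CPM (read count relative to the library total, scaled by TMM) in EP300 KD1, against 172 ± 5.11 in NS1, and to 95.8 ± 3.87 in EP300 KD2, against 174 ± 8.14 in NS2 (SD, n = 3 each). The labelled cell type was checked with 10 mammary epithelial markers, all of which were tested, and their summed level was 4420 to 4500 CPM in EP300 KD1 against 6550 to 6660 in NS1, and 3900 to 3950 in EP300 KD2 against 7440 to 7530 in NS2. Of these, KRT5 averaged 1410 CPM or more in every group, whereas the basal keratin KRT14 was near the floor, with group means from 0.136 to 1.03 CPM. KRT19 (group means from 0.235 to 2.36 CPM) and KRT8 (2.2 to 3.32) were also low, beside KRT18 at 949 to 1530. The sources used here do not say which transcripts a row counted. These low values, and the markers at 0 below, therefore apply to what the rows counted and not to the transcripts. The fall of the sum was not shared by every marker. ITGA6 was higher in EP300 KD1 than in NS1 (1110 ± 14.4 against 1040 ± 10.1 CPM) and lower in EP300 KD2 than in NS2 (741 ± 6.42 against 1270 ± 7.31). The low KRT8 row was also higher in EP300 KD1 (3.32 ± 0.443 CPM against 2.2 ± 0.146 in NS1). The test was edgeR's quasi-likelihood test with Benjamini-Hochberg adjustment over 13424 rows, and a gene is said to have risen or fallen where the adjusted p was under 0.05. Calls were common: 64.9% of rows passed in EP300 KD1 against NS1 (32.6% higher and 32.3% lower), and 57.8% in EP300 KD2 against NS2 (27.9% higher and 29.9% lower).

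The 8 members other than IL6ST passed the filter on low counts, with 1 row each. For the members, the start regions were read from RefSeq (GRCh38.p14). Entries were found for 8 of the 9 members, 11 in all, and LIF is named only. The 250 bases before the start are shown for IL6, the gene with the largest rise, for LIFR (the first of 3 entries) and SOCS3 (the first of 2), which rose with both hairpins as IL6 did, and for IL11, which rose with the first. They were chosen with the values and the matches known. Capitals mark matches to the motif letters given after the sequences, and the SOCS3 window has none.
IL6 (chr7:22726950-22727199, plus strand): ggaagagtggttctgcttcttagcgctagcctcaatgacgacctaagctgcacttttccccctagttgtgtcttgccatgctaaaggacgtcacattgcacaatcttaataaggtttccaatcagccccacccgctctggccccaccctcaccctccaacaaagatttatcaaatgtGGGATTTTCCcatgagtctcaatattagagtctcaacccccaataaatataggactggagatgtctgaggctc
IL11 (chr19:55370464-55370713, minus strand): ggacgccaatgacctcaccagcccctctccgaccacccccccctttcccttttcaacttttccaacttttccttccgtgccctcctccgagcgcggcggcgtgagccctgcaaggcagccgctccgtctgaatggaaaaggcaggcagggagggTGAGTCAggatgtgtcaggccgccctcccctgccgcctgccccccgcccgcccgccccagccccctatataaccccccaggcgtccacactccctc
LIFR (chr5:38595406-38595655, minus strand): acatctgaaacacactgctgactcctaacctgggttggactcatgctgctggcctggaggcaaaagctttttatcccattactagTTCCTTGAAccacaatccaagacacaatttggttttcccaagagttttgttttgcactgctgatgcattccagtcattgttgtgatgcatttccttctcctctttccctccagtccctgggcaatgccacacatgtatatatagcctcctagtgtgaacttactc
SOCS3 (chr17:78360926-78361175, minus strand): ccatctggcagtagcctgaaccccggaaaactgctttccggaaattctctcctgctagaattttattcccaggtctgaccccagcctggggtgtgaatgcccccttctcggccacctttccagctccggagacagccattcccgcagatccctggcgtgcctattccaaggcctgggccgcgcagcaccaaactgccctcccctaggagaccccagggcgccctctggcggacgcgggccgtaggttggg

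Both strands of these windows were searched for TTCNNNGAA (the core of a STAT site), TGANTCA (AP-1), TGACGTCA (the cyclic AMP response element) and GGGRNNYYCC (the NF-kB consensus). In these letters N is any base, R is A or G, and Y is C or T. The IL6 window held 1 match, GGGATTTTCC to the NF-kB consensus, at positions -73 to -64 from the start. That consensus matched in 9.96% of 35116 RefSeq start regions. The IL11 window held 1 AP-1 match at -96 to -90, a motif found in 6.57% of start regions. The first LIFR window held 1 STAT match at -165 to -157, its second entry held another at -182 to -174, and 6.57% of start regions held at least 1. IL6ST had 1 NF-kB match at -53 to -44, and no match was found in the windows of IL6R, OSMR, STAT3 or SOCS3 or in the third LIFR entry. For both SOCS3 entries the bases just after the start were not found in a GENCODE transcript of the gene, unlike those of every other entry. The SOCS3 windows may therefore miss the start that GENCODE gives, and the lack of a match applies to these windows only. The cyclic AMP element, held by 1.65% of start regions, matched in 0 of the 11 windows. The matches did not overlap each other, and they describe the letters of the window without showing that a factor is bound.

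The cytokine IL6 rose most. The IL6 row (NM_000600; chromosome 7, 22727200 to 22731998 in hg38, the span of the protein-coding gene in RefSeq, as for the genes below) held 420, 440 and 492 counts in EP300 KD1 and 56, 51 and 63 in NS1. Scaled to depth these were 13.5, 12.6 and 14.3 CPM in EP300 KD1 against 1.63, 1.57 and 1.39 in NS1. In the second set it measured 8.28, 7.61 and 6.88 CPM in EP300 KD2 against 2.88, 2.02 and 2.09 in NS2. All 6 shRNA libraries lay above all 6 control libraries, and the groups came in the order EP300 KD1, EP300 KD2, NS2 and NS1 with no overlap between neighbours. IL6 rose by 3.14 ± 0.12 on the log2 scale with the first hairpin (SE, edgeR adjusted p = 3.46e-14), which is 8.83-fold. With the second it rose by 1.71 ± 0.12 (adjusted p = 3.29e-10), which is 3.27-fold.

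LIF, a cytokine made by many epithelia, was abundant and changed little. The LIF row (NM_002309; chromosome 22, 30240453 to 30246759) measured 88.5, 97.4 and 80.9 CPM in EP300 KD1 against 80.5, 78.0 and 72.4 in NS1. It measured 92.4, 92.3 and 85.9 CPM in EP300 KD2 against 88.3, 90.2 and 92.2 in NS2. The first set was separated by a narrow margin and the second overlapped. LIF rose by 0.21 ± 0.05 on the log2 scale with the first hairpin (edgeR adjusted p = 0.00155). With the second its log2 difference was 0.0012, with a 95% interval from -0.10 to 0.10 (adjusted p = 0.988). The controls differed as much: LIF was 0.23 ± 0.05 higher in NS2 than in NS1 (adjusted p = 0.00254). Against both controls pooled, the call for the first hairpin was lost (0.10, adjusted p = 0.0674) and one for the second appeared (0.12, adjusted p = 0.0283).

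IL11, a cytokine with its own gp130 co-receptor, was near the lower end of what the libraries could measure. The IL11 row (NM_001267718; chromosome 19, 55364382 to 55370463) held 51, 47 and 55 counts in EP300 KD1 against 14, 19 and 22 in NS1. It held 20, 28 and 27 counts in EP300 KD2 against 15, 23 and 11 in NS2. Mean levels were 1.53 ± 0.157 CPM in EP300 KD1 and 0.493 ± 0.088 in NS1, and 0.693 ± 0.191 in EP300 KD2 and 0.501 ± 0.179 in NS2 (SD, n = 3 each). The first hairpin separated all libraries and the second did not. IL11 rose by 1.63 ± 0.24 on the log2 scale with the first hairpin (edgeR adjusted p = 7.34e-06). Its difference with the second was 0.44 (95% interval -0.099 to 0.97, adjusted p = 0.183), and it passed when NS2 replicate 2 was left out (0.75, adjusted p = 0.0435) or when EP300 KD2 replicate 1 was (0.67, adjusted p = 0.0466).

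**Figure D1:**
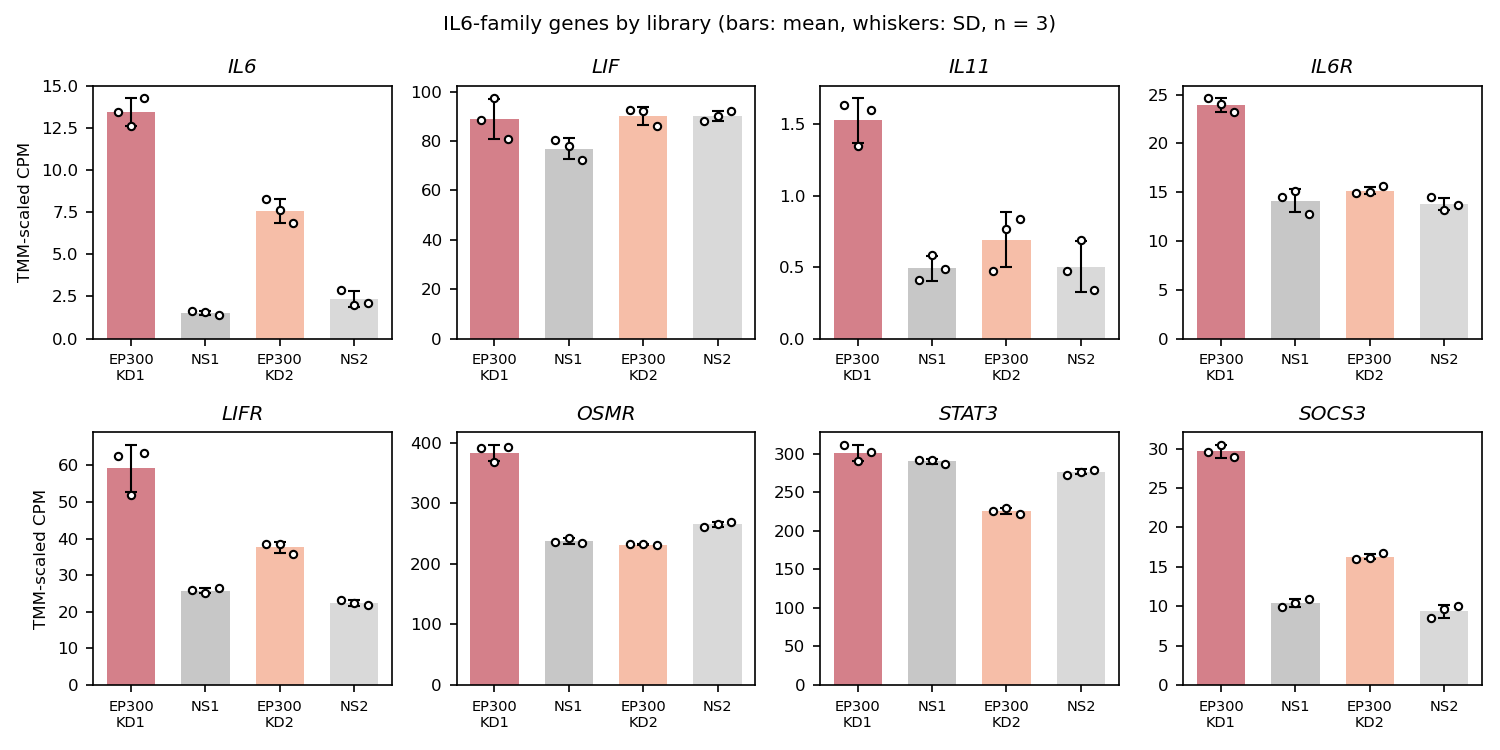
Level of each of the 8 tested genes in TMM-scaled CPM, with bars for the group mean, whiskers for the SD over 3 libraries and points for the libraries. IL6, LIFR and SOCS3 lie above the controls in all 6 EP300 shRNA libraries, whereas OSMR and STAT3 of EP300 KD2 lie below NS2.

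Among the receptor chains, LIFR rose with both hairpins. LIFR, which joins gp130 to form the LIF receptor (NM_002310; chromosome 5, 38474668 to 38608403), measured 62.7, 51.9 and 63.3 CPM in EP300 KD1 against 25.9, 25.1 and 26.4 in NS1. It measured 38.6, 38.4 and 35.8 CPM in EP300 KD2 against 23.2, 22.4 and 21.7 in NS2. Every shRNA library was above every control, and the group order was EP300 KD1, EP300 KD2, NS1 and NS2. The log2 changes were 1.20 ± 0.06 with the first hairpin (edgeR adjusted p = 1.75e-12) and 0.75 ± 0.06 with the second (adjusted p = 7.7e-09). LIFR was 0.20 ± 0.07 lower in NS2 than in NS1 (adjusted p = 0.0316), a smaller gap than that of either hairpin. That call was lost without NS1 replicate 1 or 3 or NS2 replicate 2 or 3 (adjusted p up to 0.109).

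OSMR, the oncostatin M receptor chain, changed in opposite directions. Its row (NM_001168355; chromosome 5, 38846012 to 38945579) measured 390.2, 368 and 392 CPM in EP300 KD1 against 236, 243 and 234 in NS1. In the second set it measured 232, 232 and 231 CPM in EP300 KD2 against 260.2, 266 and 269 in NS2. The libraries of both sets were separated, upward in the first and downward in the second. The log2 changes were 0.69 ± 0.03 (edgeR adjusted p = 2.88e-14) and -0.19 ± 0.03 (adjusted p = 3.84e-06). The second was -0.12 against both controls pooled. Exons of OSMR overlap those of RICTOR on the other strand, a gene with 27331 counts in all, and whether the counting used strand is not given in the sources used here.

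IL6R, the chain that binds IL6 itself, rose with the first hairpin. The row (NM_181359; chromosome 1, 154405343 to 154469450) measured 24.6, 24.0 and 23.2 CPM in EP300 KD1 against 14.5, 15.1 and 12.8 in NS1. It measured 14.9, 15.0 and 15.6 CPM in EP300 KD2 against 14.5, 13.2 and 13.7 in NS2. EP300 KD1 stood apart from the other 3 groups, which ran close together. IL6R rose by 0.77 ± 0.06 on the log2 scale with the first hairpin (edgeR adjusted p = 1.24e-09). The difference with the second was 0.14 (95% interval 0.015 to 0.26) and did not pass (adjusted p = 0.0675), although its libraries did not overlap. It passed in several other settings, at up to 0.21 with library totals alone (adjusted p = 0.00831).

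The level of IL6ST, the shared chain gp130 (chromosome 5, 55935095 to 55994963), could not be read from the table. Of its 2 accession rows, NM_175767 held 0 counts in all 12 libraries and NR_120480 held 4 counts in all, 1 in EP300 KD1 and 3 in EP300 KD2. A count of 0 allows up to 0.0956 CPM in the shallowest library, but this limit applies to what the row counted and not to the transcript. In the table as a whole, 2300 symbols had more than 1 row, and their 5899 rows carried 0.934% of all counts. IL11RA, the receptor chain of IL11, had 2 rows as well and did not pass the filter, so neither gene was tested.

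STAT3, the transcription factor that these receptors activate, moved little with the first hairpin and fell with the second. Its row (NM_003150; chromosome 17, 42313324 to 42388442) measured 312, 290.5 and 302 CPM in EP300 KD1 against 292, 292 and 287 in NS1. It measured 226, 230.04 and 221 CPM in EP300 KD2 against 273, 277 and 279 in NS2. The first set overlapped, and in the second every shRNA library was lower. The log2 difference with the first hairpin was 0.05 (95% interval 0.0042 to 0.11, edgeR adjusted p = 0.0713), and STAT3 fell by 0.29 ± 0.03 with the second (adjusted p = 1.47e-08). The first passed without EP300 KD1 replicate 2 (0.08, adjusted p = 0.00871) and against both controls pooled (0.09, adjusted p = 0.00169). Messenger RNA does not show the phosphorylation that activates STAT3.

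SOCS3, the feedback inhibitor that STAT3 induces, rose with both hairpins. SOCS3 (NM_003955; chromosome 17, 78356778 to 78360925) measured 29.6, 30.5 and 28.9 CPM in EP300 KD1 against 9.95, 10.4 and 10.9 in NS1. It measured 16.1, 16.2 and 16.7 CPM in EP300 KD2 against 8.47, 9.60 and 10.02 in NS2. All 6 shRNA libraries were above all 6 controls, while the controls overlapped each other. The log2 changes were 1.505 ± 0.058 with the first hairpin (edgeR adjusted p = 3.07e-14) and 0.80 ± 0.06 with the second (adjusted p = 1.58e-09), or 2.84-fold and 1.74-fold.

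Against NS1, EP300 KD1 showed a rise of 7 of the 8 tested members and a fall of 0, where 32.6% of all rows tested were called higher. Their median log2 change was 0.98, beside -0.0059 over all rows. With the second, 3 rose (IL6, LIFR and SOCS3), 2 fell (OSMR and STAT3) and 3 did not pass (LIF, IL11 and IL6R), where 27.9% of rows were called higher and 29.9% lower. The median was 0.29, beside -0.0021 over all rows. The split of all calls in the second set depended on scaling: 48.2% of called rows were higher with TMM and 61.3% with library totals alone, where the median of all rows was 0.067. IL6, LIFR and SOCS3 rose, and OSMR and STAT3 fell, in the second set under every scaling tried.

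**Figure D2:**
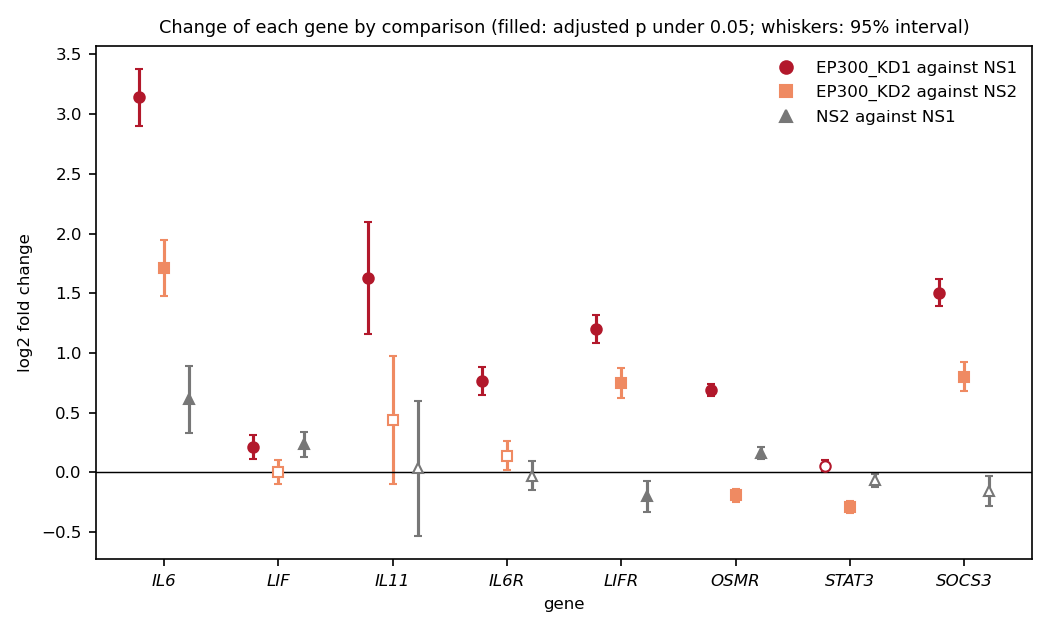
Log2 fold change of the 8 tested genes in 3 comparisons (EP300 KD1 over NS1, EP300 KD2 over NS2 and NS2 over NS1), with whiskers for the 95% interval and filled symbols for an adjusted p under 0.05. The change with the first hairpin lies above that with the second for each gene, and OSMR lies on opposite sides of 0 (0.69 and -0.19).

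The hairpins were then compared with each other, as the change with EP300 KD2 less the change with EP300 KD1. This difference was negative and passed for all 8 members, where 50.8% of rows passed and 29.2% were lower. With library totals alone, 54.8% of the called rows were higher, against 42.6% with TMM, and LIF no longer passed (-0.14, adjusted p = 0.121). LIF also missed the threshold without NS1 replicate 3, NS2 replicate 3, EP300 KD1 replicate 2 or EP300 KD2 replicate 3 (adjusted p = 0.0916, 0.0572, 0.0675 and 0.0633), and IL11 without NS2 replicate 2 (-0.88, adjusted p = 0.0736). The difference was -1.43 ± 0.18 for IL6 (edgeR adjusted p = 1.58e-06), -0.89 ± 0.04 for OSMR (adjusted p = 7.05e-13) and -0.71 ± 0.09 for SOCS3 (adjusted p = 1.26e-06). For IL6 it was made up in part of the controls, since IL6 was 0.61 ± 0.15 higher in NS2 than in NS1 (adjusted p = 0.00385). Between the shRNA lines directly, EP300 KD2 against EP300 KD1, IL6 differed by -0.82 ± 0.10 (adjusted p = 8.42e-07). EP300 mRNA had fallen further in EP300 KD2 (difference -0.18 ± 0.05, edgeR adjusted p = 0.00488), and the rises of IL6, LIFR and SOCS3 were smaller there. These data hold no measure of EP300 protein, and a relation of the rises to the level of EP300 was not tested.

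The 2 controls were compared as a measure of how far lines without an EP300 hairpin stand apart. NS2 against NS1 had 27.5% of rows called (14.2% higher and 13.4% lower), and among the members IL6, LIF and OSMR were higher and LIFR was lower in NS2. STAT3 was lower in every NS2 library than in every NS1 library but did not pass (-0.07, edgeR adjusted p = 0.0558). It passed in 10 of 23 alternatives. OSMR was 0.16 ± 0.03 higher (edgeR adjusted p = 0.000186), which is close in size to its loss of 0.19 in EP300 KD2 against NS2. In absolute terms OSMR of EP300 KD2 averaged 232 ± 0.338 CPM, below NS2 at 265 ± 4.48 and just below NS1 at 238 ± 4.66 (SD, n = 3 each). The rises of IL6, LIFR and SOCS3 exceeded the gap between controls with either hairpin. Over both hairpins together, IL6 averaged a log2 change of 2.43 ± 0.09 (adjusted p = 4.98e-15), SOCS3 1.15 ± 0.04 (adjusted p = 1e-14) and LIFR 0.97 ± 0.04 (adjusted p = 2.6e-13). In that average all 8 members passed, 7 higher and STAT3 lower, where 65.7% of rows passed (32.6% higher and 33.1% lower). The average hides unlike hairpins for OSMR (0.69 with the first and -0.19 with the second) and for LIF (0.21 and 0.0012). LIF, at 0.11, missed the threshold without EP300 KD1 replicate 2 (0.071, adjusted p = 0.0504).

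Levels were compared between genes per length. Divided by the length of the GENCODE transcript matched to each accession, OSMR was the most abundant member in every group, at 220.3 ± 7.68 CPM per kb in EP300 KD1, 137 ± 2.68 in NS1, 133 ± 0.194 in EP300 KD2 and 152 ± 2.57 in NS2 (SD, n = 3 each). That transcript is short (1740 bases), and the sources used here do not say which transcripts of a gene its row counted. Over all exons of OSMR (7174 bases) the same levels came to 53.4, 33.1, 32.3 and 37.0 CPM per kb. STAT3 came second at 59.7 ± 2.11 in EP300 KD1, 57.5 ± 0.551 in NS1, 44.8 ± 0.852 in EP300 KD2 and 54.8 ± 0.642 in NS2, and LIF came next at 22.4 ± 2.08, 19.4 ± 1.05, 22.7 ± 0.938 and 22.7 ± 0.494 in the same groups. With all exons as the length, OSMR and STAT3 differed by less than their SDs in NS1 (33.1 ± 0.649 and 32.9 ± 0.315 CPM per kb). IL6 was at rank 7 of 8 in both controls, at 1.30 ± 0.107 in NS1 and 1.97 ± 0.403 in NS2, and at rank 4 in both shRNA lines, at 11.4 ± 0.706 in EP300 KD1 and 6.42 ± 0.591 in EP300 KD2. This did not set it apart from SOCS3, at rank 5, in either line (10.9 ± 0.293 CPM per kb in EP300 KD1 and 5.97 ± 0.133 in EP300 KD2). By all exons IL6 was at rank 5 in both shRNA lines, behind SOCS3, and at rank 7 in both controls. IL11 was lowest in every group by either length.

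**Figure D3:**
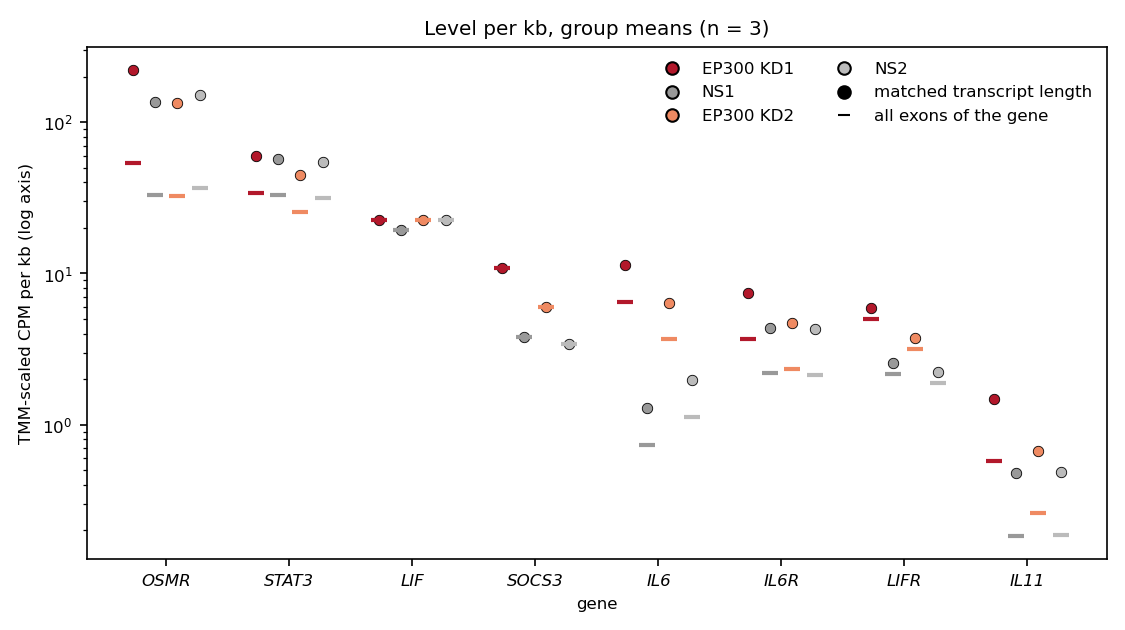
Group means of the 8 tested genes in TMM-scaled CPM per kb on a log axis, by the length of the matched transcript (circles) and by all exons of the gene (dashes). IL6 moves from the lower end in NS1 and NS2 (1.30 and 1.97) to 11.4 in EP300 KD1 and 6.42 in EP300 KD2, and OSMR shows the widest gap between the lengths.

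Other cytokines of the family came next. Of 8 in the list, 4 were tested, and 2 rose and 0 fell with each hairpin (32.6% and 27.9% of all rows higher). EBI3, a subunit that pairs with IL27 or IL12A, measured 1.89 ± 0.221 CPM in EP300 KD1 against 0.258 ± 0.0223 in NS1, and 0.680 ± 0.0705 in EP300 KD2 against 0.246 ± 0.0586 in NS2. Its log2 changes were 2.85 (edgeR adjusted p = 4.8e-10) and 1.46 (adjusted p = 5.46e-05). The 4 that were not tested include OSM, the ligand of OSMR, which held 0 counts in the 6 control libraries and in EP300 KD2.

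Of 6 other receptor and shedding genes, 4 were tested. With the first hairpin 3 rose and 0 fell (32.6% of all rows higher and 32.3% lower), and with the second 2 rose and 2 fell (27.9% higher and 29.9% lower). IL27RA, the chain that joins gp130 for IL27, measured 64.2 ± 0.341 CPM in EP300 KD1 against 30.1 ± 0.320 in NS1, and 40.8 ± 1.24 in EP300 KD2 against 30.8 ± 0.669 in NS2. Its log2 changes were 1.09 (edgeR adjusted p = 6.21e-16) and 0.41 (adjusted p = 5.02e-09). ADAM17, a protease that sheds IL6R from the cell surface, had a log2 difference of 0.03 with the first hairpin (adjusted p = 0.445) and fell by 0.45 with the second (adjusted p = 5.04e-10).

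Kinases, adaptors and other STAT genes rose with the first hairpin in 12 of 14 cases and fell in 0, with a median log2 change of 0.23, where 32.6% of all rows were higher and 32.3% lower. With the second 6 rose and 1 fell, with a median of 0.05, where 27.9% were higher and 29.9% lower. JAK2, one of the kinases bound to gp130, measured 19.9 ± 0.771 CPM in EP300 KD1 against 10.9 ± 0.535 in NS1, and 15.9 ± 0.203 in EP300 KD2 against 10.9 ± 0.264 in NS2, and rose with both (log2 0.87 and 0.54, edgeR adjusted p = 5.31e-11 and 9.12e-08). JAK1, the kinase most used by gp130, rose by 0.12 with the first hairpin (edgeR adjusted p = 0.000561) and fell by 0.10 with the second (adjusted p = 0.00415). STAT6 has 2 rows, so its value is uncertain.

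Of 9 inhibitors, 6 rose and 1 fell with the first hairpin, and 3 rose and 3 fell with the second. Over all rows, 32.6% were higher and 32.3% lower with the first and 27.9% and 29.9% with the second, so the counts with the second were near the background. SOCS2, a relative of SOCS3 best known for limiting growth hormone signalling, rose to 31.8 ± 0.533 CPM in EP300 KD1, against 18.4 ± 0.676 in NS1, and to 32.7 ± 1.45 in EP300 KD2, against 20.8 ± 1.49 in NS2. PIAS3, which binds STAT3 and blocks it on DNA, fell to 112 ± 1.26 CPM in EP300 KD1, against 125 ± 1.38 in NS1, and to 86.1 ± 4.21 in EP300 KD2, against 115 ± 3.78 in NS2 (SD, n = 3 each).

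Textbook targets of STAT3 and gp130 moved both ways. Of 33 in the list 28 were tested, of which 14 rose and 10 fell with the first hairpin (median log2 change 0.16), and 7 rose and 15 fell with the second (median -0.18). The shares over all rows were 32.6% higher and 32.3% lower with the first and 27.9% and 29.9% with the second, and the counts of 10 lower and 7 higher were near them. TIMP1, an inhibitor of matrix metalloproteases, rose by 2.57 (edgeR adjusted p = 2.31e-20) and by 1.69 (adjusted p = 9.25e-18). MUC1, a membrane mucin, fell by 1.62 (adjusted p = 4.41e-17) and by 2.15 (adjusted p = 4.57e-18). FGB, fibrinogen beta, an acute phase gene of the liver, measured 0.325 ± 0.173 CPM in EP300 KD1 against 6.93 ± 1.12 in NS1, and 0.370 ± 0.112 in EP300 KD2 against 2.99 ± 0.399 in NS2, and fell with both (log2 -4.43 and -2.97, edgeR adjusted p = 3.49e-12 and 2.79e-09). S100A9, a subunit of calprotectin, went in opposite directions, with 75.1 ± 7.01 CPM in EP300 KD1 against 21.1 ± 1.31 in NS1 and 15.3 ± 0.542 in EP300 KD2 against 21.0 ± 1.22 in NS2 (edgeR adjusted p = 3.61e-15 and 2.66e-05). FGB and S100A9 were chosen after their values were seen.

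**Figure D4:**
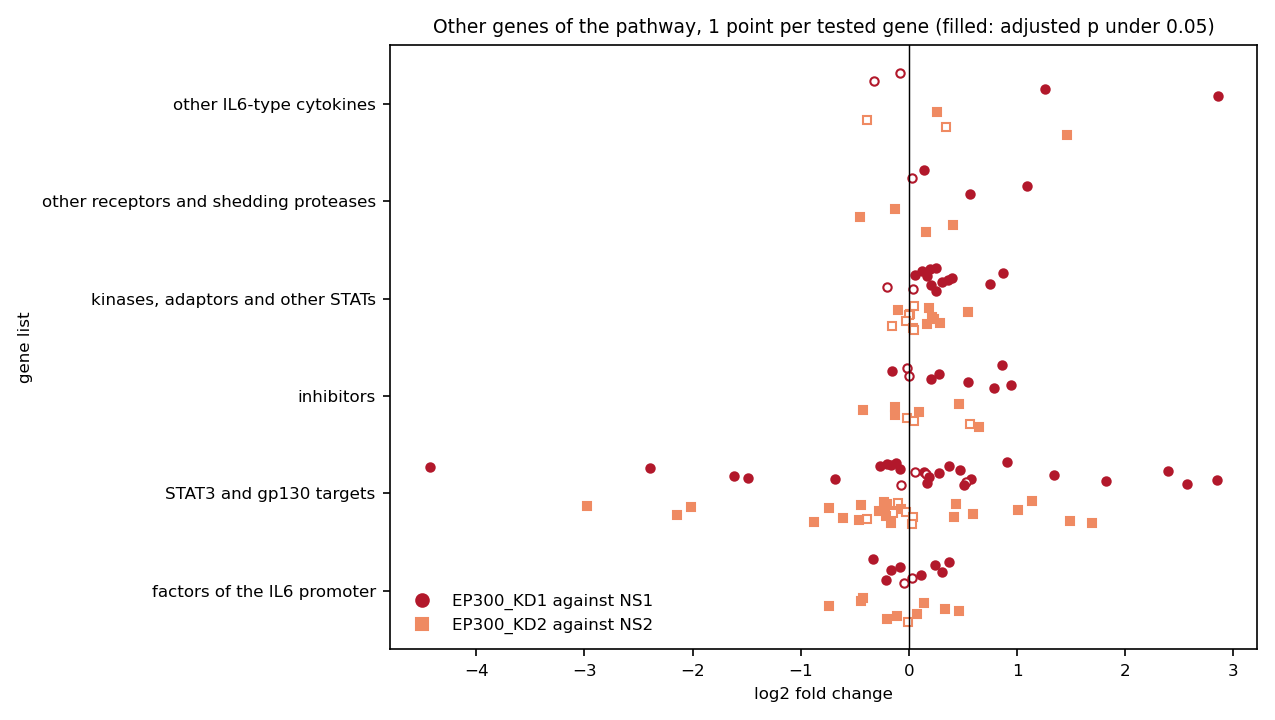
Log2 fold change of the other pathway genes by list, 1 point per tested gene, for EP300 KD1 over NS1 (circles) and EP300 KD2 over NS2 (squares), filled where the adjusted p was under 0.05. The kinase list lies mostly right of 0 with the first hairpin, where 12 of 14 rose, and the target list spreads to both sides.

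The rows whose pattern over the 12 libraries lay closest to a member were found by the root mean square difference of centred log2 CPM. For IL6 these were ADGRG3, an adhesion-type receptor, at 0.19, FMNL1, a formin, at 0.22 and PID1 at 0.23, beside an SD of 1.31 for IL6 itself. For SOCS3 they were FBN1, the gene of fibrillin, at 0.085, B4GAT1 at 0.10 and DNER at 0.11, beside an SD of 0.69. For IL11 they were ZBED2, TMCC3 and PLA2R1 at 0.28 each, beside an SD of 0.72, and those for LIF included PLEC at 0.060 and ZFP36L1 at 0.061, beside an SD of 0.12. For each, 11376 rows were searched (11377 for IL11), and a close match is a description of these libraries.

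Summed markers of other cell types were below those of the epithelium, and all but the hepatocyte sum moved with both hairpins. The 10 fibroblast markers summed to between 147 and 149 CPM in EP300 KD1 against 61.8 to 63.7 in NS1, and to between 69.0 and 70.0 in EP300 KD2 against 54.0 to 58.5 in NS2. COL1A2, COL3A1 and LUM, defining genes of fibroblasts, held 0 counts in all 12 libraries. Others were higher in the shRNA lines: DCN averaged 43.3 ± 0.878 CPM in EP300 KD1 against 7.31 ± 0.211 in NS1, and 10.9 ± 0.503 in EP300 KD2 against 4.60 ± 0.625 in NS2. PDGFRA averaged 8.56 ± 0.551 CPM in EP300 KD1 against 0.430 ± 0.112 in NS1, and 1.12 ± 0.107 in EP300 KD2 against 0.411 ± 0.0703 in NS2. C1R was likewise higher with both (28.9 ± 0.481 CPM in EP300 KD1 against 4.39 ± 0.421 in NS1, and 11.1 ± 0.424 in EP300 KD2 against 5.00 ± 0.338 in NS2), as was COL1A1 (16.3 ± 2.12 against 8.97 ± 0.596, and 10.1 ± 0.330 against 8.19 ± 0.294, in the same groups). FAP was higher with the first hairpin only (49.6 ± 2.87 against 40.9 ± 1.67, and 35.4 ± 1.19 against 37.0 ± 1.83, in the same groups). The same held for PDGFRB (1.51 ± 0.0553 against 0.696 ± 0.0931, and 0.742 ± 0.219 against 0.84 ± 0.138). The 12 leukocyte markers summed to between 67.8 and 75.0 CPM in EP300 KD1 against 52.6 to 63.5 in NS1, and to between 38.1 and 40.4 in EP300 KD2 against 66.1 to 67.8 in NS2. MS4A1 and NKG7 held 0 counts throughout, and PTPRC, the pan-leukocyte marker, averaged at most 0.0182 CPM in any group. The sum was carried by CD68 and CD14, which went opposite ways. CD68 averaged 40.1 ± 3.31 CPM in EP300 KD1 against 12.6 ± 1.31 in NS1, and 22.9 ± 0.851 in EP300 KD2 against 17.8 ± 1.59 in NS2. CD14 averaged 29.5 ± 0.703 CPM in EP300 KD1 against 46.2 ± 5.11 in NS1, and 15.8 ± 0.361 in EP300 KD2 against 48.6 ± 2.57 in NS2. The 6 endothelial markers summed to between 13.1 and 15.7 CPM in EP300 KD1 against 28.8 to 32.9 in NS1, and to between 6.40 and 7.04 in EP300 KD2 against 38.6 to 40.6 in NS2, with CLDN5 at 0. PECAM1 carried most of it, at 9.67 ± 0.982 CPM in EP300 KD1 against 29.3 ± 2.23 in NS1, and 5.38 ± 0.404 in EP300 KD2 against 38.7 ± 1.26 in NS2. TEK went the other way (4.14 ± 0.459 against 0.246 ± 0.143, and 0.958 ± 0.139 against 0.257 ± 0.0976, in the same groups). KDR, at low levels, was higher in EP300 KD1 than in NS1 (0.839 ± 0.104 against 0.515 ± 0.0864) and similar in EP300 KD2 and NS2 (0.27 ± 0.076 and 0.216 ± 0.0361). The 4 adipocyte markers, with ADIPOQ and LEP at 0, summed to between 1.09 and 1.19 CPM in EP300 KD1 against 3.05 to 3.75 in NS1. In EP300 KD2 they summed to between 0.71 and 0.975 CPM, against 2.77 to 3.13 in NS2. The 4 hepatocyte markers came to at most 0.145 CPM and overlapped in both sets. The part of these shifts in the results above was not tested, and in bulk RNA a change in the share of cells that make a transcript and a change in RNA per cell cannot be told apart.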

How the data were processed

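Libraries were made from Trizol-extracted RNA with a stranded TruSeq mRNA kit, per the labels' protocols. HISAT2 2.1.0, featureCounts and the build hg38 are named in the submitters' processing notes. The annotation, version and strand setting of the counting were not given in the sources at hand. What the authors deposited is a table of raw counts for 29094 RefSeq accession rows. RefSeq's gene table named 28130 rows and GENCODE 29 another 490, and 474 rows (0.313% of counts) had no symbol.

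All 12 libraries were fitted together in R 4.3.3 with edgeR 4.0.16 (filterByExpr defaults, TMM, 1 coefficient per group, quasi-likelihood test, threshold 0.05), and the procedure was tested on simulated data. Standard errors came from the test statistic and 95% intervals are 1.96 of them. DESeq2 1.42.0, limma 3.58.1 (voom), other scalings, filters, controls and rows, and leaving out each library were alternatives. Replicates differed by more than sampling noise in every pair (chi-square per degree of freedom 1.86 to 4.54). The floor for a count of 0 covers counting error only. Exon unions as gene lengths were added after seeing the data.

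The members and lists were chosen with earlier results of these data known. Named were all members, EP300 and CREBBP, the called gene of each list with the smallest p per direction and hairpin, and the 3 rows most like IL6, LIF, IL11 and SOCS3 with at least 1 CPM on average. Some items that these rules name are not reported here. Genes with several rows were read from the row with the most counts. CREBBP, the paralogue of EP300, had log2 differences of -0.03 and -0.06 (edgeR adjusted p = 0.445 and 0.0916).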

Additional observations from a re-analysis of the deposited data

Results flagged for a closer look

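The change with EP300 KD2 less the change with EP300 KD1 passed edgeR's test of that difference for each of the 8 tested members, always with the smaller or opposite change in the second set. The log2 differences were -1.43 for IL6, -0.21 for LIF, -1.19 for IL11, -0.63 for IL6R, -0.45 for LIFR, -0.89 for OSMR, -0.35 for STAT3 and -0.71 for SOCS3. Of all 13424 rows, 50.8% passed this test and 29.2% were lower. LIF is the least secure of them: EP300 KD2 and EP300 KD1 compared directly differed by 0.02 (adjusted p = 0.749). No group has more than 3 libraries, so single libraries that stand apart were not tested for.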

How the results depend on the processing

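Counts of called rows and members stayed within 1.5 times of those reported under every alternative run. With each library left out in turn, called rows ran from 8209 to 8765 for EP300 KD1 against NS1 and from 7255 to 7902 for EP300 KD2 against NS2. IL6, LIFR and SOCS3 kept direction and call with both hairpins under all 24 alternatives, as did IL11, IL6R and OSMR with the first and OSMR and STAT3 with the second. Among members, 10 values turned in direction, all for LIF, IL11 or IL6R. For LIF, the second hairpin's difference was -0.0012 with a replicate block and ran from -0.0144 to 0.0355 with a library left out, and the difference between hairpins was 0.021 against pooled controls. Between the controls, IL11 was at -0.0067 with limma-voom and ran from -0.28 to 0.25, and IL6R from -0.11 to 0.0189, with a library left out. IL11 lost the difference between hairpins without NS2 replicate 2 (-0.88, adjusted p = 0.0736). The cause of these shifts was not tested. Libraries with the same replicate number did not deviate together (correlations from -0.0396 to 0.0257), and 2 of 6 libraries in each set correlated best with their own number. The replicate block gave 8748 and 7802 called rows in place of 8711 and 7762. A fit of 6 libraries gives no average or difference of the hairpins, and no average or comparison of controls was made with pooled controls. Under another length or scaling, 30 levels per kb moved by 1 SD or more and 34 by less. Depth limits IL11, with 11 to 55 counts per library.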

Other observations

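Transcription factors known to act on the IL6 promoter moved both ways. Of 11 in the list, 10 were tested: 4 rose and 4 fell with the first hairpin, and 4 rose and 5 fell with the second, with median log2 changes of -0.0096 and -0.06. Over all rows, 32.6% were higher and 32.3% lower with the first and 27.9% and 29.9% with the second. JUN, a subunit of AP-1, rose to 55.1 ± 3.42 CPM in EP300 KD1, against 44.6 ± 2.53 in NS1, and to 57.9 ± 1.65 in EP300 KD2, against 42.1 ± 1.42 in NS2. ATF4, a factor of the stress response, fell by 0.33 with the first hairpin (edgeR adjusted p = 1.7e-10) and by 0.42 with the second (adjusted p = 4.99e-12). FOS, the partner of JUN, fell to 98.8 ± 3.22 CPM in EP300 KD1, against 105 ± 1.93 in NS1, and to 71.8 ± 2.16 in EP300 KD2, against 119.9 ± 2.05 in NS2 (SD, n = 3 each). RELA, the main activating subunit of NF-kB, had log2 differences of -0.05 and -0.01 that did not pass (adjusted p = 0.268 and 0.865). RELA was chosen after its values were seen. CEBPB, a classical activator of IL6, has 3 rows that held 0 counts each and was not tested. As with IL6ST, the zeros apply to what the rows counted and not to the transcript, so the level of CEBPB could not be read.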
